A study of Mus musculus with 12 samples.

Results

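The genes described here are 46 ligands and receptors of axon guidance, out of 21883 protein-coding mouse genes with a position in the gene table. They were taken as a fixed list of symbols: 10 Eph receptors, 5 ephrins, 14 semaphorins, 7 plexins, 4 genes of the Robo and Slit families and 6 of the Unc5 and netrin families. Every peak that the authors had assigned to 1 of these genes was collected, which gave 309 of 30534 Meis1 peaks and 97 of 22284 Hoxb13 peaks. The peaks come from chromatin immunoprecipitation and sequencing of whole ventricles taken at postnatal day 15 from outbred CD-1 mice, for which the labels give no genetic change or treatment. There were 12 libraries in 4 groups of 3: Meis1 precipitates, Hoxb13 precipitates, and an input chromatin group for each. There is 1 deposited list per factor and it holds no value per library, so no value below has a spread between hearts and no test between hearts was possible. Whole ventricle holds cardiomyocytes, vessel cells, fibroblasts and nerve fibres, and a peak list does not tell in which of them, or in what share of cells, a site was occupied.

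Axon guidance molecules steer growing cells by contact or by diffusible cues. Ephrins on a cell bind Eph receptor tyrosine kinases on its neighbour. Semaphorins act through plexins, Slit proteins through Robo receptors, and netrins through Unc5 receptors and Dcc. In the heart the same molecules are known for guiding vessels, sympathetic nerves and cells of the outflow tract and valves. Meis1 is a homeobox factor of the TALE class, and Hoxb13 is a posterior Hox protein. The labelled tissue was compared with the peaks through genes of ventricular muscle: 9 of 10 such markers had a Meis1 peak and 10 of 10 a Hoxb13 peak, with 93 Hoxb13 peaks at Ttn, the gene of the giant sarcomere protein titin. Among 10 neuronal markers 5 had a Meis1 peak and 6 a Hoxb13 peak. Dbh, Map2, Rbfox3 and Snap25 had peaks of both factors, and Tubb3, Syp and Prph had none of either. Among 10 endothelial markers 8 had a Meis1 peak and 9 a Hoxb13 peak. Of all protein-coding genes 38.2% had a Meis1 peak and 44.4% a Hoxb13 peak, shares that are not matched for size. Peak counts were also set against the mean of the 200 genes nearest in locus size, defined below. For Meis1 they were 2.63 times this mean for muscle markers, 0.77 for neuronal and 1.18 for endothelial markers. For Hoxb13 they were 17.8, 0.73 and 4.11 times.

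The promoters shown first are those with a promoter-class peak (within 1 kb of a start site) whose RefSeq window, 250 bases before to 50 after the start, shared at least 100 bases with it. They are printed 5′ to 3′ on the gene's strand, from GRCm38.p6. Ephb3, an Eph receptor for B-type ephrins (chr16:21204545-21204844, plus strand), is shown because peaks of both factors overlapped there, and its capitals mark the 73 bases inside both peaks. Sema4b, a transmembrane semaphorin (chr7:80186620-80186919, plus strand), had a promoter peak of each factor, but the Meis1 peak ended 317 bases before the window, and its capitals mark 40 bases around the Hoxb13 summit. Epha7, an Eph receptor for A-type ephrins (chr4:28812895-28813194, plus strand), lay whole inside the strongest Hoxb13 peak of the 46 genes, with 41 bases around the summit in capitals. Ntn4, a netrin of basement membranes (chr10:93640799-93641098, plus strand), held the strongest Hoxb13 peak among Unc5 and netrin genes, with 17 bases near its summit in capitals.
Ephb3: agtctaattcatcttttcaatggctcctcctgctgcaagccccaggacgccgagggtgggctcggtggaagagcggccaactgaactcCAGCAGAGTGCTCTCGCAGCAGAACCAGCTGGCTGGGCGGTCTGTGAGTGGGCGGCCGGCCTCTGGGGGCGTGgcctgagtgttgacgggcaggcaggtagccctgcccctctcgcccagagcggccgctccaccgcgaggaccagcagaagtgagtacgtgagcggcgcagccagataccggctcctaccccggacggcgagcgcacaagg
Sema4b: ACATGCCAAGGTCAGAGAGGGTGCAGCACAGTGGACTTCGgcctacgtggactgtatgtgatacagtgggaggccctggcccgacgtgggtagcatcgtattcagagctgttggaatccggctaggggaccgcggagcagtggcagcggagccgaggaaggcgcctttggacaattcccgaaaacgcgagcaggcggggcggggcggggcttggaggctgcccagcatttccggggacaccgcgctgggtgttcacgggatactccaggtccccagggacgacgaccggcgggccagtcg
Epha7: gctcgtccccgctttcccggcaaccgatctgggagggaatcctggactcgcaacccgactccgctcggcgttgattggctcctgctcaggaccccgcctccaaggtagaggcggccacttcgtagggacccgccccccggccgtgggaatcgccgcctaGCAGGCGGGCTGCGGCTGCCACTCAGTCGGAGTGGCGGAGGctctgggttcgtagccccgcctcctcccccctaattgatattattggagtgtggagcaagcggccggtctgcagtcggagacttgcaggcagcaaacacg
Ntn4: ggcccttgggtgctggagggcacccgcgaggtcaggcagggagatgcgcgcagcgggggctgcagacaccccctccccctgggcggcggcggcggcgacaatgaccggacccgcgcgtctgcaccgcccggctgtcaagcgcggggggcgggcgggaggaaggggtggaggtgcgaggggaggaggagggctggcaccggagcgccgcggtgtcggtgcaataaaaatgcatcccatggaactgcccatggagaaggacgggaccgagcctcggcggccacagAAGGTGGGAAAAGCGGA

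These 4 windows were rich in G and C, at 66.7% for Ephb3, 65.3% for Sema4b, 66.3% for Epha7 and 72% for Ntn4, with 23, 26, 27 and 31 CG pairs. Over the 52 windows of the 38 genes matched by identifier, the median was 64.3% with 21 CG pairs, against 52.7% and 7 over all 32851 windows. The letters TGACAG, the core recognised by Meis proteins, were searched on both strands and found in 10 of the 52 windows (19.2%) and in 6300 of all windows (19.2%). The Ntn4 window holds them once, and the other 3 printed windows do not. The Hoxb13 letters CCAATAAA were in 0 of 52 windows and in 1.12% of all, and CTCGTAAA in 0 and 0.131%.

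Of the 46 genes 30 had a Meis1 peak, where 38.2% of all protein-coding genes did, and 38 had a Hoxb13 peak, where 44.4% did. Peaks of both factors were assigned to 27 genes, against 23.9% of all genes. Only Meis1 peaks were assigned to Epha4, Ephb2 and Plxnc1, and only Hoxb13 peaks to 11 genes. Of all 21883 genes 3139 had only Meis1 peaks, 4489 only Hoxb13 peaks and 9035 neither. No peak of either factor was assigned to Epha8, Ephb6, Efna2, Sema4a or Unc5a. Counted by position, in the gene body or within 10 kb, Sema4a had 1 peak of each factor and Efna2 and Epha4 had 1 Hoxb13 peak each. Sema3g and Sema4c then had 1 Meis1 peak each, while Sema3c and Unc5d had no Hoxb13 peak. By this count 33 genes had Meis1, 39 had Hoxb13 and 29 had both. The shares of all genes given above are for assigned peaks, and none was taken by position. Guidance genes are large: their median locus, counted from the midpoint of the gap on one side of the gene to the midpoint of the gap on the other, was 209 kb against 45.7 kb for all genes, and nearest-gene assignment gives a large locus more peaks. From the share of genes with a peak in each of 10 strata of locus size, 25.7 genes with Meis1, 24.5 with Hoxb13 and 18.2 with both would be found. The list was drawn up with the peak lists known, which bears on these counts. Of 26 other genes of the same families, whose median locus was smaller at 72.9 kb, 14 had a Meis1 peak, 13 a Hoxb13 peak and 10 neither.

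**Figure D1:**
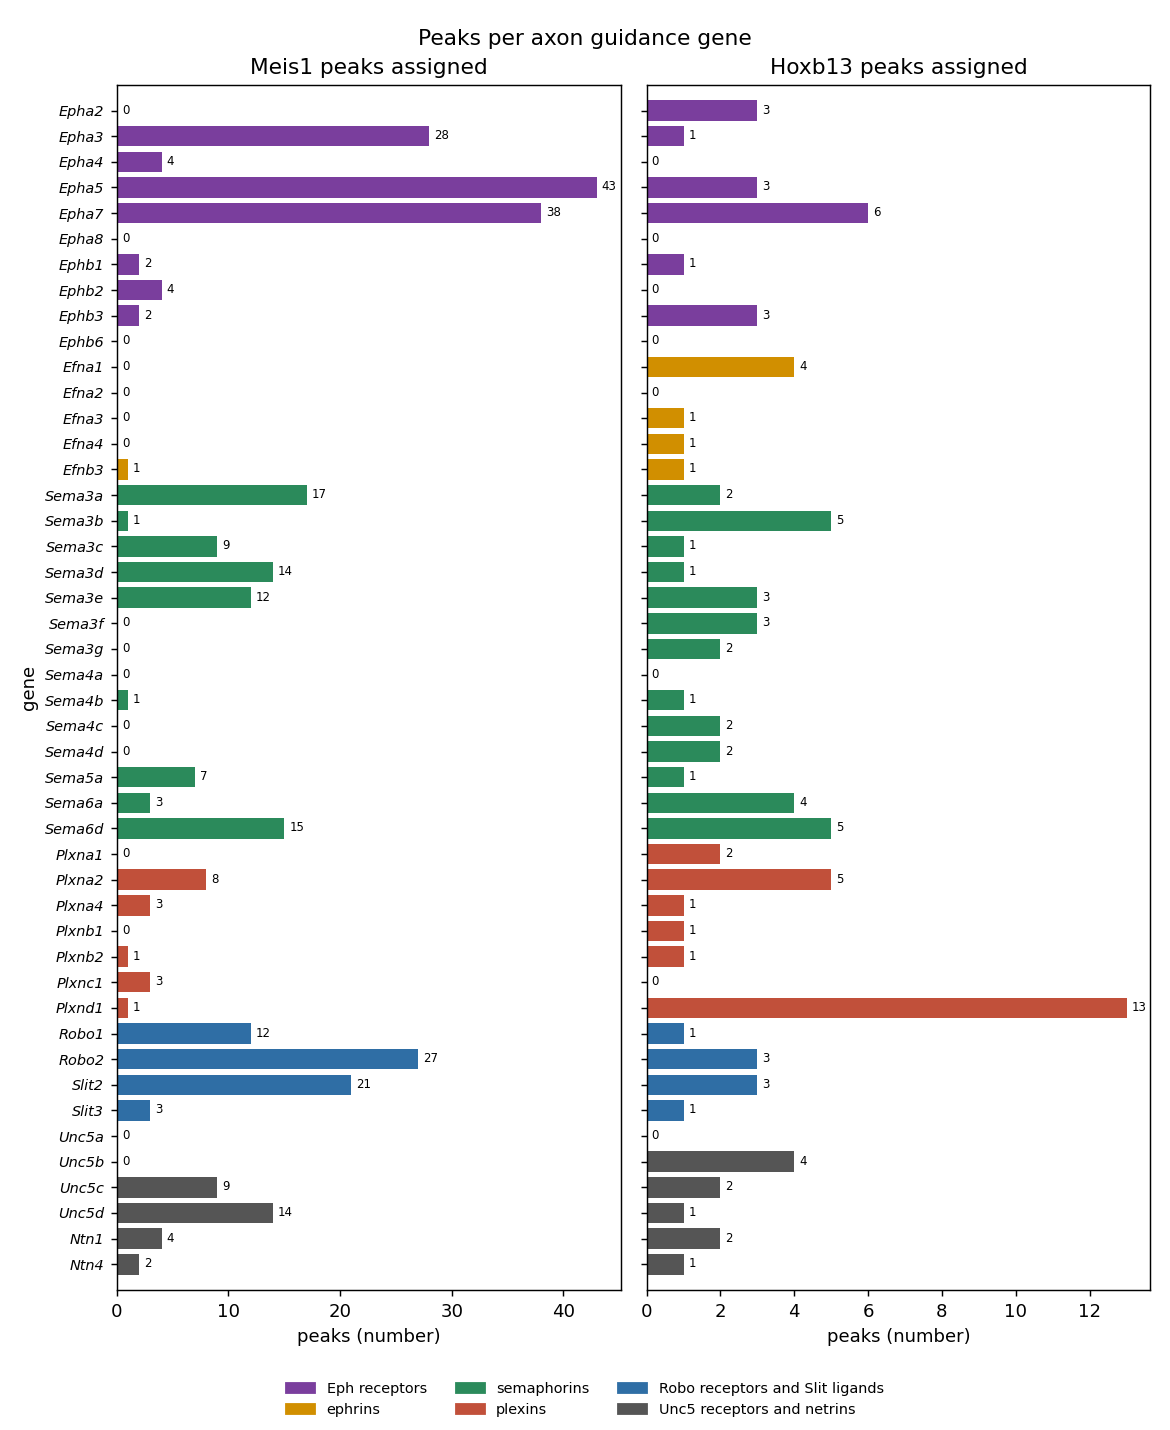
Number of Meis1 peaks (left) and Hoxb13 peaks (right) that the authors assigned to each of the 46 genes, with bars coloured by family and a different scale on each side. Epha5, Epha7, Epha3 and Robo2 have 27 to 43 Meis1 peaks, and Plxnd1 stands alone for Hoxb13 with 13.

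The number of Meis1 peaks followed locus size closely and the number of Hoxb13 peaks weakly. Across the 46 genes Spearman's rank correlation of peak count with locus size was 0.83 for Meis1 and 0.14 for Hoxb13, and with gene body length 0.80 and 0.09. Over all 21883 genes the values with locus size were 0.45 and 0.22. These are descriptions across genes, some of which are chromosomal neighbours. The genes were then divided by locus size at limits chosen after the values were seen. All 17 genes with a locus over 500 kb had a Meis1 peak (82.4% of all genes of that size), 8 of 12 between 100 and 500 kb (62%), and 5 of 17 under 100 kb (27.6%). For Hoxb13 the counts were 16 of 17 (69.4% of all genes of that size), 9 of 12 (55.6%) and 13 of 17 (39.1%). The 17 smallest loci thus carried 5 Meis1 and 38 Hoxb13 peaks, and the 17 largest 259 and 39.

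**Figure D2:**
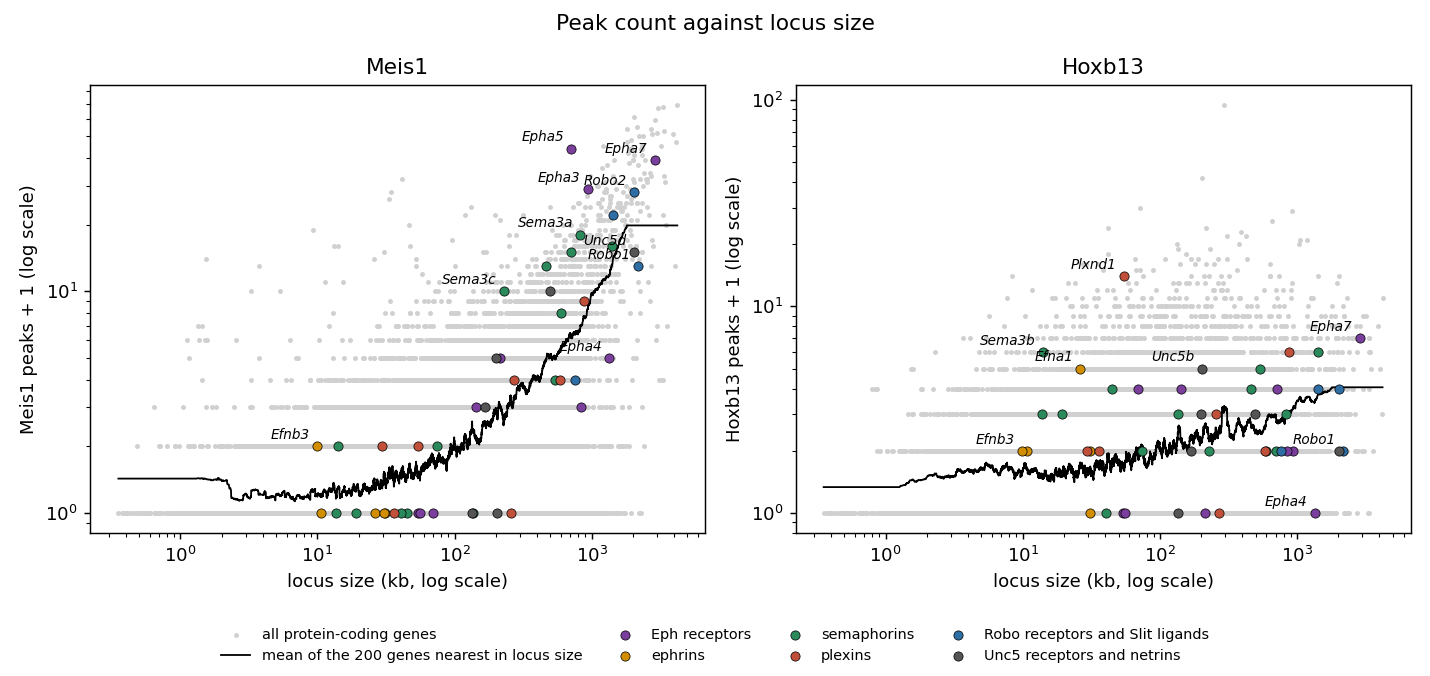
Peak count plus 1 against locus size in kb, both on log scales, for Meis1 (left) and Hoxb13 (right). Grey points are all protein-coding genes, the black line is the mean of the 200 genes nearest in locus size (flat at the ends, where genes share 1 set of 200), and coloured points are the 46 genes. The Meis1 line climbs steeply above 100 kb and the Hoxb13 line little, and Plxnd1 and Epha5 lie far above their lines.

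Summed over the 46 genes there were more peaks of both factors than the mean gene of like size has, and for Meis1 the amount depended on how finely size was matched. With the mean of each of 10 size strata as the expected number, 309 Meis1 peaks were observed where 131 were expected, a ratio of 2.36 (Poisson 95% interval 2.10 to 2.64, which covers counting error only). For Hoxb13 97 were observed where 60.6 were expected, a ratio of 1.60 (1.30 to 1.95). The largest stratum, with 19 of the genes, runs from 284 to 4218 kb. Against the 200 genes nearest in locus size, a comparison chosen after the data were seen, the ratios were 1.56 and 1.44. The median gene had 0.98 times its neighbours' mean for Meis1 and 1.35 times for Hoxb13, where the median over all genes was 0 for both. Over all genes of 100 to 500 kb the medians were 0.69 and 0.65, and over all genes of more than 500 kb 0.81 and 0.66. A count at least 2 times the neighbours' mean was found at 12 of 46 genes for Meis1 (18.5% of all genes) and at 11 for Hoxb13 (15.7% of all genes). Without Epha5, Epha7 and Epha3 the 10-stratum ratio of Meis1 was 1.76, and without Plxnd1, Epha7 and Plxna2 (which tied with Sema3b and Sema6d at 5 peaks) that of Hoxb13 was 1.30.

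**Figure D3:**
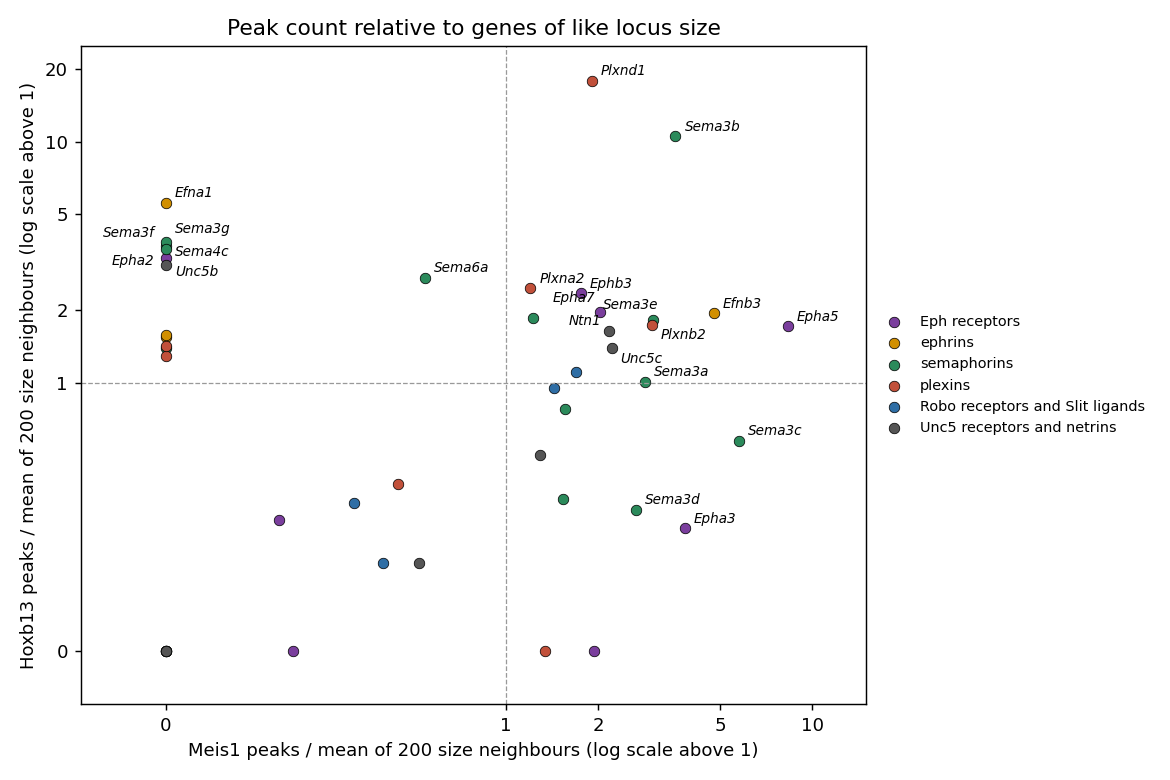
For each of the 46 genes, Meis1 peaks (horizontal) and Hoxb13 peaks (vertical) divided by the mean of the 200 genes nearest in locus size, linear up to 1 and logarithmic above. Named genes reach 2 for either factor. Epha5 lies at 8.32 for Meis1, with peaks that span more than its locus, and Plxnd1 at 17.9 for Hoxb13. The column at 0 on the left holds genes with no Meis1 peak.

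Eph receptors held the most Meis1 peaks, and nearly all of them were at 3 A-class receptors. Epha5 had 43 Meis1 peaks, which ranked it 21 among all protein-coding genes, Epha7 had 38 and Epha3 28. For a locus of 713 kb the Epha5 count was 8.32 times the mean of its size neighbours and above 99.5% of them. Its 43 Meis1 peaks spanned 1290 kb, more than this locus, which ends short of the neighbouring gene Gm42163. The ratio thus sets peaks from a wider region against the size of a smaller one. Epha3, with a locus of 935 kb, stood at 3.83 times and above 98.5%. Epha7 has a locus of 2886 kb, and its count was 6.68 times the mean of its broad stratum but 2.02 times that of the 200 largest genes, above 84.5% of them. Its Meis1 peaks lay outside the gene in 36 of 38 cases, over a span of 1901 kb, with a median of 39.0 kb between neighbouring summits. At Epha5 16 of 43 were inside the gene, 24 between genes and 3 inside the predicted gene Gm42163. Strength, the authors' value for each peak, had a median of 17.1 at Epha5, 17.6 at Epha7 and 19.0 at Epha3, against 18.7 in the whole Meis1 list. In its stronger 50% were 14 of 43 peaks at Epha5, 14 of 38 at Epha7 and 15 of 28 at Epha3. Epha3 held the strongest Meis1 peak of the receptors, an intergenic site 169 kb upstream (chr16:64033207-64033376, strength 140, rank 469 of the list). Epha4, with a locus of 1345 kb, had 4 Meis1 peaks, all upstream of the gene, a count 0.37 times the mean of its neighbours. Ephb1, with 843 kb, had 2, or 0.33 times, and 4 when counted by position. At Ephb2, the 4 Meis1 peaks all lay inside the gene and within 66.7 kb, with strengths of 24.3 to 82.3. Hoxb13 had 17 peaks on Eph receptors, 6 of them at Epha7, 3 each at Epha2, Epha5 and Ephb3, and 1 each at Epha3 and Ephb1. The Epha7 promoter peak (chr4:28812876-28813271, strength 60.3, rank 488) covered the whole window printed above.

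The 5 ephrins on the list, ligands of Eph receptors, have loci of 9.85 to 30.9 kb. Of these 4 were assigned a Hoxb13 peak (39.1% of all genes under 100 kb) and 1 a Meis1 peak (27.6%). Ephrins outside the list differed: Efna5, Efnb2 and Efnb1 had 54, 26 and 4 Meis1 peaks and 9, 4 and 0 Hoxb13 peaks. Their loci are 2155, 1803 and 202 kb. Efna1 had 4 Hoxb13 peaks within 4.24 kb around its start, 5.59 times the mean of its size neighbours, with strengths of 23.1 to 24.5. They formed 3 separate peaks after overlapping ones were merged. Of the 4 listed, 3 were in the promoter class, the strongest at chr3:89278672-89279067. Efna3 and Efna4, which follow Efna1 on chromosome 3 with no other protein-coding gene between them, had 1 each, so the 3 genes share a region. Efnb3, a transmembrane B-type ligand, had a single Meis1 peak, and it was the strongest of all 309 (chr11:69559243-69559453, strength 215, rank 176), 784 bases downstream of the start. Its only Hoxb13 peak covered the start site itself, with strength 23.7 and a summit 0.921 kb from that of Meis1, and did not overlap it. No Meis1 peak was listed for Efna1, Efna2, Efna3 or Efna4.

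Among semaphorins the secreted class 3 genes with large loci had the most Meis1 peaks, and all 7 genes of the class were assigned a Hoxb13 peak. Sema3a had 17 Meis1 peaks, Sema3d 14, Sema3e 12 and Sema3c 9, and these were 2.66 to 5.77 times the mean of their size neighbours and above 93.0% to 99.0% of them. The 7 class 3 genes together had 53 Meis1 peaks, 2.97 times the mean of their neighbours, with Sema3d and Sema3a adjacent on chromosome 5 and Sema3e 3 protein-coding genes away. Hoxb13 peaks of the 4 genes numbered 2 at Sema3a, 1 at Sema3d, 3 at Sema3e (1.82 times its neighbours) and 1 at Sema3c. Sema3c showed the highest Meis1 ratio of the class, with 9 peaks in a locus of 228 kb, none of them stronger than 19.5. Sema3d held the strongest semaphorin peak of Meis1 (chr5:12507731-12507911, strength 159, rank 359), beside 13 others with a median for all 14 of 16.9. That strongest peak lay inside the gene of 206 kb, 125 kb from the start. It was annotated to intron 6 of 6 of a transcript, where another Sema3d transcript has 16 introns. The compact class 3 genes Sema3f and Sema3g were assigned no Meis1 peak but 3 and 2 Hoxb13 peaks, 3.68 and 3.85 times their neighbours. Sema3b, with a locus of 14.0 kb, had 5 Hoxb13 peaks, 10.5 times its neighbours, but 0 of them inside Sema3b: 2 lay in Lsmem2, 1 in Gnai2 and 2 between genes, so this count rests on nearest-gene assignment. Its single Meis1 peak also lay in Gnai2. Transmembrane class 4 genes were assigned 1 Meis1 peak in all, at the Sema4b promoter (strength 23.0). Sema4c had 2 Hoxb13 promoter peaks, with strengths of 44.1 and 41.8, which were among the strongest 10% of that list. Sema6d, with a locus of 1418 kb, had 15 Meis1 and 5 Hoxb13 peaks, 1.23 and 1.86 times its neighbours, and 2 overlapping Hoxb13 peaks at a start site, the stronger at chr2:124609797-124610192 (strength 45.2, rank 1078). Sema5a had 7 Meis1 peaks, all inside the gene, and 1 of Hoxb13, while Sema6a had 3 and 4.

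Plexins, the semaphorin receptors, had 16 Meis1 peaks in 7 genes, and 13 of their 23 Hoxb13 peaks were at 1 gene. Plxnd1, the receptor of Sema3e with known roles in vessel patterning, had 13 Hoxb13 peaks in a locus of 54.4 kb. That was 17.9 times the mean of its size neighbours, above 99.5% of them, and ranked the gene 40 of all protein-coding genes together with others of the same count. The peaks spanned 35.4 kb with a median of 1.27 kb between summits, and formed 12 separate peaks after overlapping ones were merged. Upstream of the start lay 10 and downstream 3. A group of 6 was found 8.68 to 12.2 kb upstream, with the strongest at chr6:116005376-116005771 (strength 48.0, rank 904). Markers of cardiomyocytes had 193 Hoxb13 peaks in 10 genes, 93 of them at Ttn, or 17.8 times their neighbours. Those of endothelium had 51 in 10 genes, or 4.11 times, and neuronal markers 8 in 10 genes, or 0.73 times. The part of any of these cell types in the Plxnd1 peaks was not tested. Plxna2 had 8 Meis1 and 5 Hoxb13 peaks, 1.20 and 2.47 times its neighbours. Plxna4 and Plxnc1, each with 3 Meis1 peaks assigned, had some of the strongest, 141 kb upstream of Plxna4 (chr6:32728763-32728921, strength 114, rank 697) and 46.2 kb upstream of Plxnc1 (strength 109). Counted by position, in the gene body or within 10 kb, Plxna4 had 9 Meis1 and 6 Hoxb13 peaks, against 3 and 1 assigned. Plxna1, Plxnb1 and Plxnb2 had 0, 0 and 1 Meis1 peaks and 2, 1 and 1 Hoxb13 peaks.

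**Figure D4:**
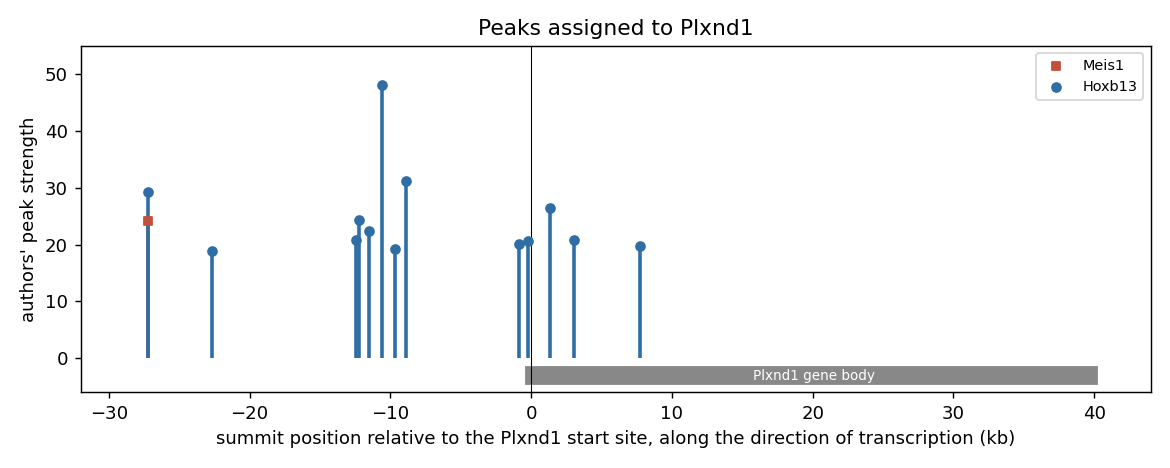
Summits of the 13 Hoxb13 peaks (circles) and the single Meis1 peak (square) assigned to Plxnd1, by position relative to its start site in kb (negative is upstream) and the authors' strength on the vertical axis; the grey bar is the gene body. The peaks gather at the start and 8.68 to 12.2 kb upstream, and the Meis1 summit is 8 bases from the farthest Hoxb13 summit.

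Robo receptors, Slit ligands, Unc5 receptors and netrins had from 0 to 27 Meis1 peaks a gene. Robo2 had 27 Meis1 peaks, Slit2 21, Unc5d 14 and Robo1 12. Set against the 200 genes nearest in locus size these were 1.43, 1.70, 0.74 and 0.64 times the mean, where the 10-stratum ratios were 4.75, 3.69, 2.46 and 2.11. These ratios rest on assigned peaks. Counted by position, in the gene body or within 10 kb, Robo2 had 32 Meis1 peaks, Slit2 8, Unc5d 4 and Robo1 20. Robo2, Robo1, Unc5d and Epha7 share 1 set of neighbours, the 200 largest loci (1358 kb and more), with a mean of 18.8 Meis1 peaks. At Robo2 21 of the 27 lay inside the gene, while at Slit2 14 of 21 lay between genes. Slit3 had 3 Meis1 peaks, all inside the gene and all in the stronger 50% of the list, the strongest of them in intron 4 of 35 (chr11:35251958-35252241, strength 49.4). Hoxb13 had 8 peaks on the Robo and Slit genes, none in a promoter, the strongest at Robo2 (strength 23.0). Unc5c had 9 Meis1 peaks, 2.21 times its neighbours, with 1 in the promoter class (strength 41.1). Unc5a and Unc5b had no Meis1 peak, and Unc5b had 4 Hoxb13 peaks inside the gene, 3.09 times its neighbours. Ntn1, a secreted guidance cue, had 4 Meis1 peaks, 2.16 times its neighbours, the strongest 4.00 kb upstream (chr11:68390831-68391114, strength 48.1), and 2 of Hoxb13. Ntn4 had 2 and 1, the Hoxb13 peak at its start site (chr10:93640904-93641299, strength 34.1).

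Peaks of both factors on the 46 genes lay farther from start sites than in the lists as a whole. The comparison was not matched for locus size, whose median was 209 kb for these genes against 45.7 kb for all genes. The median distance was 131 kb for Meis1, against 58.2 kb in the list, and 9.44 kb for Hoxb13, against 4.55 kb. The promoter class held 8 Meis1 peaks, or 2.59% (exact binomial 95% interval 1.12 to 5.04), against 6.73% of the list. It held 25 Hoxb13 peaks, or 25.8% (17.4 to 35.7), against 40.3%. In the stronger 50% of the Hoxb13 list the share was 40.5% of 42 peaks (25.6 to 56.7), against 55.9%. Peaks of 1 gene are not independent, so these intervals cover counting error only and no test was made. Counted per gene, Meis1 promoter peaks were found at 15.2% of the 46 genes, against 8.16% of all genes. These were 7 genes, namely Efnb3, Ephb3, Epha3, Robo2, Sema6a, Unc5c and Sema4b. Hoxb13 promoter peaks were found at 18 of the 46 genes (39.1%, against 30.7% of all genes). Of these genes Ephb3 and Efna1 had 3 each and Sema4c, Sema6d and Plxnd1 2 each, with 2 overlapping at Ephb3, Efna1 and Sema6d. The other 13 were Epha7, Ephb1, Efna4, Efnb3, Sema3a, Sema3f, Sema4b, Sema4d, Plxna2, Plxna4, Plxnb1, Unc5b and Ntn4. Peaks on the 46 genes were also weaker. Of the Meis1 peaks 117 of 309 (37.9%) and of the Hoxb13 peaks 42 of 97 (43.3%) were in the stronger 50% of their lists, with median strengths of 17.7 and 20.7 against 18.7 and 21.4. Each of the 30 genes with a Meis1 peak kept at least 1 in the stronger 50%.

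**Figure D5:**
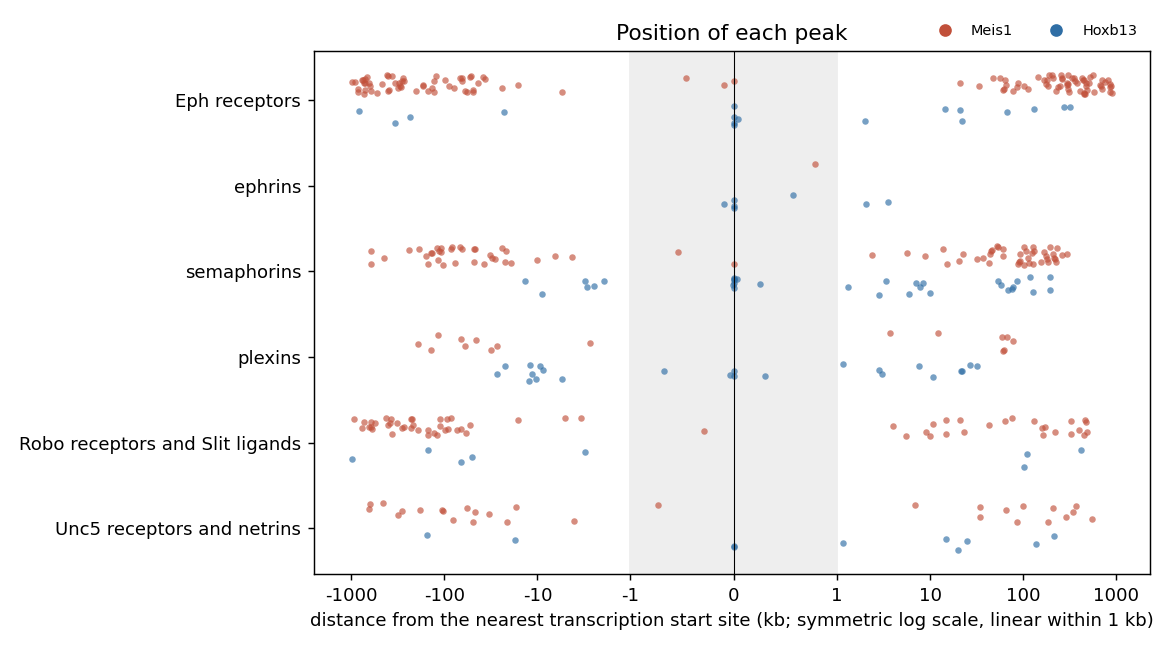
Distance of each peak on the 46 genes from the nearest transcription start site in kb, on a symmetric log scale that is linear within 1 kb, by gene family; red points are Meis1 and blue points Hoxb13, spread vertically for legibility. The grey band is 1 kb on each side, with 8 Meis1 and 25 Hoxb13 peaks in the promoter class, and most Meis1 peaks lie beyond 10 kb.

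Both factors shared a site, by an overlap of at least 1 base, at 4 of the 46 genes. This was 1.29% of the Meis1 peaks (exact binomial 95% interval 0.354 to 3.28), against 5.54% of the Meis1 list. It was 4.12% of the Hoxb13 peaks (1.13 to 10.2), against 7.93%. Neither comparison was matched for locus size, peak class or strength, in which these peaks differ from the lists. The site at Robo2, in intron 4 of 27, had the strongest Meis1 peak of the 4 (chr16:74027871-74028154, strength 45.5), a Hoxb13 peak of strength 23.0 (chr16:74027747-74028142) and summits 68 bases apart. The site at Plxnd1 (Meis1 chr6:116022095-116022378, strength 24.2; Hoxb13 chr6:116022031-116022426, strength 29.3) had summits 8 bases apart. It lies 27.0 kb upstream of Plxnd1, inside the neighbouring gene Tmcc1. The site at Ephb3 was in the promoter printed above (Meis1 chr16:21204422-21204705, strength 20.5; Hoxb13 chr16:21204633-21205028, strength 24.3), but its summits were 267 bases apart. The site at Sema6d was in intron 5 of 20 (Meis1 chr2:124616011-124616294, strength 18.6; Hoxb13 chr2:124616181-124616576, strength 17.8), with summits 226 bases apart. Summits within 100 bases, or a reciprocal overlap of 50%, were met by 2 sites, those of Plxnd1 and Robo2. In the other 23 genes with both factors the nearest summits were 0.478 kb apart (Sema4b) to 116 kb (Plxna4).

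Other genes of the pathway were counted from fixed lists. Of 33 genes that act downstream of these receptors, such as small GTPases, their kinases and actin regulators, 20 had a Meis1 peak (60.6%, against 38.2% of all genes) and 25 a Hoxb13 peak (75.8%, against 44.4%), with 63 and 102 peaks. The shares were not matched for size, and the 33 genes had a median locus of 139 kb. Of all genes of 100 to 500 kb, 62% had a Meis1 peak and 55.6% a Hoxb13 peak. Relative to the 200 nearest genes in size the peak counts were 1.39 and 2.59 times the mean, where the 46 ligands and receptors had 1.56 and 1.44. Ablim1, an actin-binding LIM protein, had 21 Hoxb13 peaks, Mical2, an actin-oxidising enzyme, 13 and Trio, a guanine nucleotide exchange factor, 10. Rhoa, Rac1 and Cdc42 had 1, 1 and 2 Hoxb13 peaks and no Meis1 peak. The 26 other family genes had 200 Meis1 and 56 Hoxb13 peaks, 2.02 and 1.70 times the mean of their neighbours. Among them Epha6 had 60 Meis1 peaks, Efna5 54, Dcc 31 and Efnb2 26, in loci of 1803 to 2155 kb, and Sema7a had 11 Hoxb13 peaks. The differences between the lists were not tested.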

How the data were processed

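Chromatin immunoprecipitation libraries of Meis1 and Hoxb13 and their inputs were grouped by the sample titles. The submitters' processing notes name the build mm10 and, without roles, deepTools 1.6, ChIPseeker, Picard and Bowtie2 2.2.3. Which program called peaks, at what threshold and from which combination of libraries is not given in the sources used here. For each factor the authors deposited 1 annotated peak list. The deposited signal value per peak, here called strength, has only a column number per the file headers and was used to rank peaks within a list; a deposited score was not used. Most peaks had a fixed width, 284 bases in 95.0% of Meis1 and 396 bases in 98.8% of Hoxb13 peaks. Read depth per library is unknown and the inputs entered no comparison.

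Peaks were counted by the authors' nearest-gene assignment. Genes came from RefSeq GRCm38.p6, the same assembly as mm10, and the symbols and identifiers of all 46 genes matched. Of the peaks 81.0% (Meis1) and 88.5% (Hoxb13) were assigned to a gene of this table. Expected counts were means over 10 strata of locus size. The script was tested on simulated data with a known excess. The raised genes were drawn over all sizes, so this does not gauge the 10-stratum ratio for genes of the largest stratum. Since the lists hold no value per library, no test was made; intervals are exact binomial or Poisson. Python 3.11.15, pandas 2.3.3 and scipy 1.17.1 were used.

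The members and gene lists were chosen with earlier results of these data known. All 46 genes could be named; positions are given for each site shared by the factors, the strongest peak of each factor in each family, and the 3 genes with most peaks or the largest ratio (from 3 peaks). Printed promoters were those with peaks of both factors, then by rank of the strongest promoter peak; Efnb3, with promoter peaks of both factors, had no matching window and is named only, and Sema6d and Sema4c were passed over because their windows lay 42.9 kb from a promoter peak and shared 16 bases with one, a condition chosen after the data were seen. Alternatives tried were a stronger 50% of each list, other ways of assigning peaks, other size measures, merged peaks, list length and stricter overlaps.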

Additional observations from a re-analysis of the deposited data

How the results depend on the processing

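No paired analysis was possible because there is 1 list per factor with no value per library, and for the same reason no replicate could be left out. Of 37 recomputed values 22 stayed within their interval or within 1.5 times the count, 15 moved and 0 reversed. The ratio of observed to expected Meis1 peaks, 2.36, became 1.98 in the stronger 50% of the list, 2.79 with peaks counted by position (in the gene body or within 10 kb, by which 33 genes had Meis1, 39 had Hoxb13 and 29 both), 1.60 when only peaks up to 10 kb from a start were counted, 1.80 with 20 strata and 1.76 without the 3 genes with most peaks. With the 200 and the 50 genes nearest in locus size, chosen after the data were seen, it was 1.56 and 1.40, so it depended on how finely size was matched. That of Hoxb13 ran from 1.30 to 1.86 over its alternatives. In the stronger 50% of the list 24 genes had a Hoxb13 peak and 15 both, and the Hoxb13 promoter share was 40.5%. Among peaks up to 10 kb from a start, 18 genes had Meis1, 25 had Hoxb13 and 11 had both. For the gene counts of these alternatives no share over all genes was taken, so they have no background. Shared sites fell from 4 to 2 with summits within 100 bases and to 2 with a reciprocal overlap of 50%. Where a cause is not in the alternative's own construction, the cause was not tested. Depth is unknown, so a gene without a listed peak is not shown to be unoccupied.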
